A study of Mus musculus with 26 samples.

Results

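The heat shock genes described here are 10 chaperone and co-chaperone genes: Hspa1a, Hspa1b, Hspa8, Hsph1, Dnajb1, Bag3, Hsp90aa1, Hspb1, Hspd1 and Hspe1. They were taken by symbol, and all 10 were found among the 21031 genes of the normalized counts table and the 57010 genes of the counts table. They were read in every one of the 26 libraries, in all 8 groups and in the 4 comparisons of a Panx1 mutant with its controls. All 10 passed the filter on low counts in all 4 comparisons.

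Heat shock proteins fold new proteins, hold damaged ones in a form that can be refolded and pass others on for degradation. When unfolded proteins build up, the transcription factor HSF1 is released from chaperones, forms trimers and binds heat shock elements, which are alternating inverted repeats of the letters GAA (TTC on the opposite strand) in the promoters of these genes. Hspa1a and Hspa1b encode the stress-inducible HSP70, and Hspa8 the constitutive member of that family. In arteries the small heat shock protein encoded by Hspb1 binds actin filaments and is known as a regulator of smooth muscle contraction, and BAG3 works with HSP70 in the turnover of filament proteins under mechanical load.

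The libraries came from mesenteric arteries, the resistance vessels of the gut, of male mice aged 8 weeks, and measured poly(A) RNA in bulk. Panx1 encodes pannexin 1, a membrane channel that releases ATP. The 3 libraries of the global Panx1 knockout (genotype Panx1 KO) were compared with 3 wild-type libraries (WT). In each of the other lines the labels write the mutant genotype with +/+ and the control genotype with -/-: Y198F+/+ (3 libraries) with Y198F-/- (3), S205A+/+ (4) with S205A-/- (4), and Y308F+/+ (3) with Y308F-/- (3). Y198F and Y308F replace a tyrosine of the channel by phenylalanine, and S205A replaces a serine by alanine, so that the residue can no longer be phosphorylated. The knockout is global and the labels name no promoter or cell type for any allele, no strain and no treatment. The study describes 3 vascular trees for each mutant and littermate or wild-type controls, which differs from the 4 libraries of both S205A groups, and each library was counted as labelled. The labels do not say that replicates were separate animals, so the p-values measure the spread between these libraries.

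Total counts per library ran from 14.9 to 23.6 mega-counts. Panx1 itself was read at 92, 63 and 91 normalized counts in the wild-type libraries and at 11, 18 and 25 in the knockouts. In the S205A controls it stood at 15, 81, 29 and 53, so that S205A control 1 lay within the range of the knockouts, and in the other libraries it ran from 33 to 98. The markers of the labelled tissue were abundant everywhere: the normalized counts of 5 smooth muscle genes summed to between 342682 and 707725, and those of 5 endothelial genes to between 20845 and 177861. The lowest endothelial sum belonged to S205A control 1, the library with the highest Hspa1a. Signal of other tissues was present at 476 to 35337 normalized counts for 5 adipocyte genes and at 12 to 392 for 5 lymphoid genes. In 9 libraries the library name carries a number that begins with 22, a group called series 22 here: S205A controls 1, 2 and 3, S205A 2, 3 and 4, and every Y198F mutant. What that number stands for is not stated in the labels. In the Y198F line all mutants and no control belong to series 22, so that the mutation and the library series cannot be told apart within that line. In bulk RNA, fewer cells of a type and less RNA per cell cannot be told apart either.

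All 10 genes are protein-coding in GENCODE vM39, on genome build GRCm39. Hspa1a (ENSMUSG00000091971, chr17:35188166-35191132, minus strand) and Hspa1b (ENSMUSG00000090877, chr17:35175412-35178214, minus strand) are neighbours. Hspd1 (ENSMUSG00000025980, chr1:55116989-55171038, minus strand) and Hspe1 (ENSMUSG00000073676, chr1:55127260-55130476, plus strand) overlap. Hspb1 (ENSMUSG00000004951, chr5:135916760-135918417, plus strand) and Hsph1 (ENSMUSG00000029657, chr5:149537636-149560156, minus strand) share a chromosome. The remaining genes are Dnajb1 (ENSMUSG00000005483, chr8:84334811-84339820, plus strand), Hsp90aa1 (ENSMUSG00000021270, chr12:110656842-110669166, minus strand), Hspa8 (ENSMUSG00000015656, chr9:40711630-40731039, plus strand) and Bag3 (ENSMUSG00000030847, chr7:128125283-128148705, plus strand).

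The promoters of the members differ in the heat shock elements they hold, and those of the HSP70 pair, of Hspb1 and of the shared Hspd1 and Hspe1 promoter are shown because the first 3 genes gave the widest ranges of level, Hspd1 gave the narrowest, and its promoter and that of Hspe1 hold the longest element. Sequences were read from the genome build GRCm39 at the canonical transcript starts of GENCODE vM39, and the first 3 are the 150 bases before the start, written on the gene's own strand. Capitals mark heat shock elements. The Hspa1a stretch lies at chr17:35191133-35191282 on the minus strand, the Hspa1b stretch at chr17:35178215-35178364 on the minus strand, and the Hspb1 stretch at chr5:135916610-135916759 on the plus strand. The element of Hspe1 lies at chr1:55127218-55127235 and is written on the plus strand.
Hspa1a: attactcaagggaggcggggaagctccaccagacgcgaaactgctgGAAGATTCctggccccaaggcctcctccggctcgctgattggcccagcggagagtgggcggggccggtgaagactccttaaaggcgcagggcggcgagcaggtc
Hspa1b: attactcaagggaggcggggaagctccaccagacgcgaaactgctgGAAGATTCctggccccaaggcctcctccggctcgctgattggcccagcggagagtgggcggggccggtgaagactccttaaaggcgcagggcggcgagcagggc
Hspb1: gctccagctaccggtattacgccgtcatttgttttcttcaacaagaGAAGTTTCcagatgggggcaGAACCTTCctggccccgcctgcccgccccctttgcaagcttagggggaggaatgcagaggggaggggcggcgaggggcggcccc
Hspe1 element: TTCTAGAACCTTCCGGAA

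The Hspa1a and Hspa1b stretches differed at 1 of 150 positions, and each had its element 104 bases before the start. Hspb1 had 2 elements, 104 and 84 bases before its start. Hspd1 and Hspe1 are transcribed in opposite directions from starts 108 bases apart, and the element printed for Hspe1 lies between them, 73 bases before the Hspe1 start and, on the other strand, 52 bases before the Hspd1 start. The element was searched on both strands in 2 forms, the pair GAANNTTC or TTCNNGAA and the triplet GAANNTTCNNGAA or TTCNNGAANNTTC, where a triplet always contains 2 pairs. In windows of 300 bases, from 250 before to 50 after the start, the triplet was found in Hspd1 and Hspe1 and in 104 of 21757 protein-coding promoters (0.478%). A pair was found in 7 of the 10 members and in 14.3% of all these promoters. Besides the genes above these were Hsph1 and Dnajb1, while Hsp90aa1, Hspa8 and Bag3 had no match to these letters in the window. A match is a description of the letters and was not tested as a binding site.

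Levels between genes are compared as mean normalized counts per kilobase of merged exons. On that scale Hspb1 was highest at 5584, followed by Hspa8 at 1872 and Hsp90aa1 at 1100. Hspa1b stood at 756.5, Hspa1a at 631.3, Hspd1 at 575.1, Bag3 at 452.7 and Hspe1 at 424.6. The HSP70 partners Dnajb1, a J-domain co-chaperone that stimulates the ATPase of HSP70, and Hsph1, a nucleotide exchange factor of HSP70, were lowest at 171.4 and 144.8. This order depends on the length used. Per kilobase of the canonical transcript alone Hspa8 (6786) stood above Hspb1 (6365), Hspe1 (977.1) and Hspd1 (885.3) stood above the inducible HSP70 pair, and Hsph1 (260.5) stood above Dnajb1 (182.7).

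Part of the reads of several members can come from near-identical copies. The coding parts of Hspa1a and Hspa1b were 99.4% identical, and 54.5% of the 150-base windows in the coding part of Hspa1a were also found in Hspa1b, against 0 of the 661 windows wholly after it. The deposited counts still separated the pair, with Hspa1a at 0.753 to 1.03 times Hspa1b and below it in 23 of 26 libraries. The share of 150-base windows of the canonical transcript found in any other gene was 55.4% for Hspa8, 52.5% for Hspb1, 33.5% for Hsp90aa1, 18.6% for Hspd1 and 14.1% for Hspe1. It was 0.0% for Hsph1, Dnajb1 and Bag3. Over the whole transcript it was 39.7% for Hspa1a and 40.5% for Hspa1b. Levels of the genes with shared windows are uncertain, but the share of windows is not the share of counts affected, which was not tested. Hspe1 and Hspd1 also overlap on opposite strands, as do Hspa1a, Hsph1, Hsp90aa1, Hspa8 and Bag3 with antisense genes. Whether counting used the strand is not stated.

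The members differed in how much they varied between libraries of one group. The standard deviation within groups of log2 CPM, counts scaled to library size, was largest for Hspa1b at 0.73 and Hspa1a at 0.70, followed by Hspb1 at 0.57 and Hsph1 at 0.53. It was 0.41 for Hspa8, 0.31 for Hsp90aa1, 0.29 for Dnajb1, 0.22 for Bag3 and for Hspe1, and smallest for Hspd1 at 0.16. Over the 26 libraries the highest normalized count was 9.49 times the lowest for Hspb1, 8.43 times for Hspa1b and 6.86 times for Hspa1a, against 1.70 times for Hspd1. The first place of Hspb1 rests on S205A 4 (26898), since the next library, S205A control 1, held 10788 and the lowest 2835. A few libraries held many of the highest values: WT 2 was among the top 3 libraries for 8 of the 10 members, S205A control 1 for 6 and S205A 4 for 5. Y308F control 2 was among the lowest 5 libraries for 6 members.

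**Figure D1:**
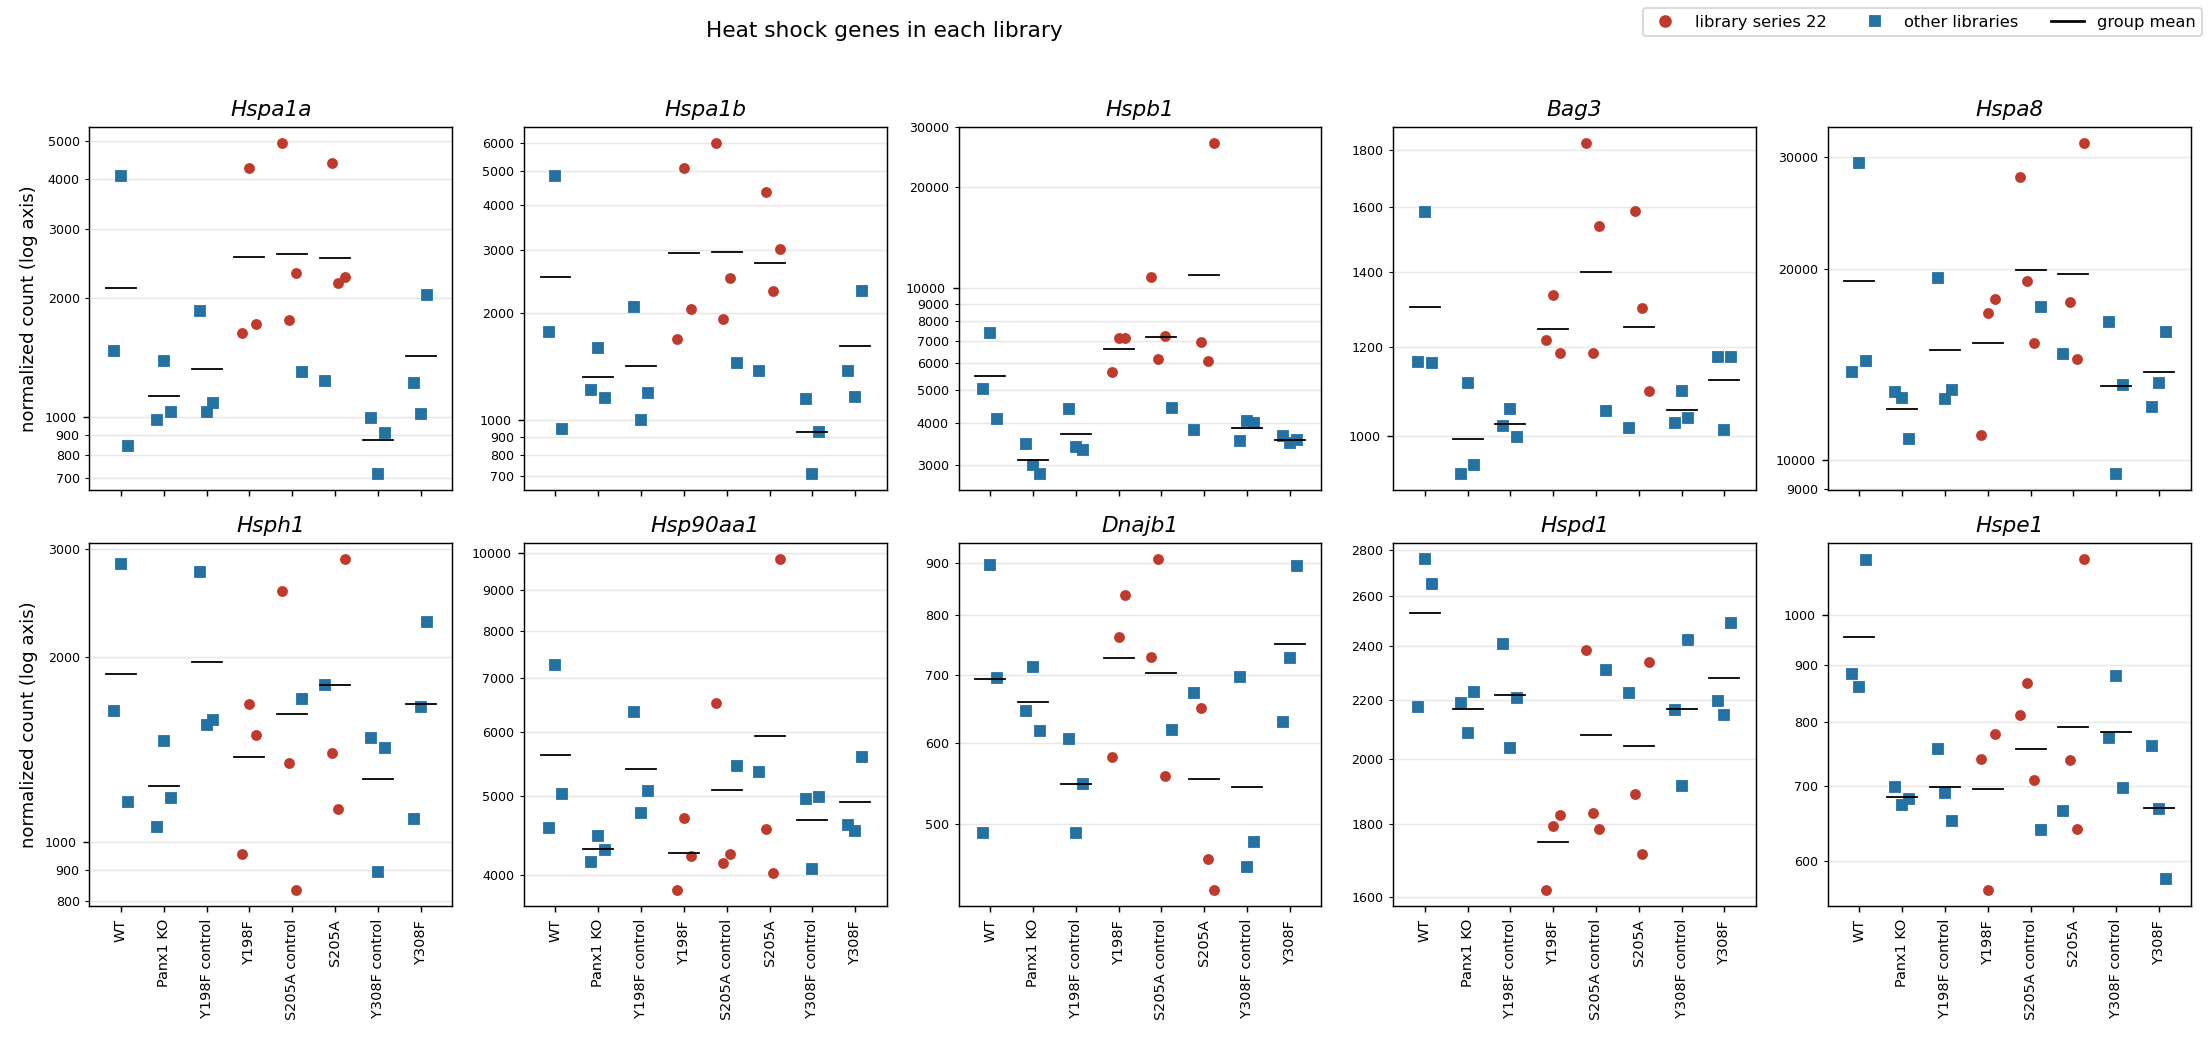
Normalized counts of the 10 heat shock genes in each of the 26 libraries (log axis, one panel per gene, own scale), by group. Red circles are libraries of series 22, blue squares the other libraries, and black lines the group means. Hspa1a and Hspa1b spread widest within groups, WT 2 stands high in most panels, S205A 4 reaches 26898 for Hspb1, and the red points of Hspb1 lie above all blue points but 1.

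The inducible HSP70 genes followed the same order of groups at both ends. Group means of Hspa1a ran from 2580 ± 1627 (SD, n = 4) in the S205A controls through 2543 ± 1497 in Y198F (n = 3), 2521 ± 1336 in S205A (n = 4) and 2128 ± 1711 in wild type (n = 3) to 1426 ± 537.5 in Y308F. Below these came the Y198F controls at 1325 ± 462.5, the knockouts at 1134 ± 220.6 and the Y308F controls at 875.6 ± 140.5 (n = 3 each). In each of the 7 pairs of neighbours in this order the libraries overlapped. Hspa1b ran from 2963 ± 2057 in the S205A controls (n = 4) to 927.4 ± 218.7 in the Y308F controls (n = 3). Its libraries overlapped between all neighbours except the last pair, the knockouts above the Y308F controls.

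Hspb1 had the widest span of group means, with S205A 4 included. The highest mean, that of S205A, rests on this library (26898), as the other S205A libraries held 3804, 6934 and 6119. The medians of S205A and its controls were 6526 and 6715. They ran from 10939 ± 10722 in S205A (n = 4) and 7161 ± 2682 in the S205A controls (n = 4) through 6634 ± 838.6 in Y198F and 5512 ± 1676 in wild type (n = 3 each). The Y308F controls stood at 3869 ± 289.2, the Y198F controls at 3708 ± 609.4, Y308F at 3571 ± 90.04 and the knockouts at 3101 ± 323.3 (n = 3 each). The wild-type libraries did not overlap with those of the next group, the Y308F controls, and the Y308F libraries did not overlap with the knockouts, while the other 5 pairs of neighbours overlapped.

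The remaining members spanned less. The highest group mean was 1.66 times the lowest for Hspa8 (S205A controls over knockouts) and 1.59 times for Hsph1 (Y198F controls over knockouts). It was 1.45 times for Hspd1 (wild type over Y198F), 1.43 times for Hspe1 (wild type over Y308F) and 1.41 times for Bag3 (S205A controls over knockouts). It was 1.40 times for Hsp90aa1 (S205A over Y198F) and 1.38 times for Dnajb1 (Y308F over its controls). Of their 7 pairs of neighbours each, the libraries overlapped in all but 1 pair of Bag3, Y198F above Y308F.

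The knockout comparison asks what the loss of the channel does to these genes. None of the 10 members passed the test, although all 10 had lower fitted levels in the knockout libraries than in wild type. The median log2 fold change of the members was -0.53, and that of all genes tested was 0.01. Without WT 2 the median of the members was -0.16. With edgeR's quasi-likelihood test, 0 of 10 members had an adjusted p under 0.05, against 0.0309% of all genes tested. At an unadjusted p under 0.05 there were 3 (Hspb1, Hspe1 and Bag3), against 11.2% of all genes. The groups did not overlap for 5 members, all lower in the knockouts (Hspb1, Hspa8, Hsp90aa1, Bag3 and Hspe1), against 18.6% of all genes without overlap and 9.85% lower without overlap.

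Hspb1 was read at 5048, 7371 and 4117 normalized counts in the wild-type libraries and at 3460, 3007 and 2835 in the knockouts. Every knockout library lay below every wild-type library, by a log2 fold change of -0.82 (edgeR SE 0.20, adjusted p = 0.314). DESeq2 on the knockout and wild-type libraries gave an adjusted p of 0.0135. In the authors' deposited DESeq2 values Hspb1 stood at -0.83 and did not pass (adjusted p = 0.674). It did not pass edgeR's test with all 8 groups in one fit either. Hspe1, which encodes the co-chaperonin that caps the mitochondrial HSP60 ring, stood at 884, 861 and 1121 in wild type and at 699, 674 and 682 in the knockouts. The 3 knockout values lay close together and below all wild-type values, with a log2 fold change of -0.47 (edgeR SE 0.12, adjusted p = 0.319). Hspd1, which encodes HSP60 itself, was read at 2175, 2758 and 2648 in wild type and at 2187, 2085 and 2228 in the knockouts. These groups overlapped, since WT 1 lay below 2 of the knockouts, and the log2 fold change was -0.21 (edgeR SE 0.12, adjusted p = 0.539).

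The lower HSP70 values of the knockouts rest on WT 2. Hspa1a was read at 1468, 4070 and 845 in the wild-type libraries and at 986, 1388 and 1029 in the knockouts. WT 2 stood far above the rest and WT 3 below every knockout, so the groups overlapped, with a log2 fold change of -0.90 (edgeR SE 0.64, adjusted p = 0.667). Hspa1b showed the same pattern, with 1768, 4830 and 947 in wild type and 1215, 1594 and 1154 in the knockouts. Without WT 2 the log2 fold change was -0.01 for Hspa1a, -0.03 for Hspa1b, -0.17 for Hsph1, -0.15 for Hsp90aa1, -0.21 for Hspa8 and Bag3, and 0.16 for Dnajb1. Hspb1 (-0.55) and Hspe1 (-0.54) stayed further from 0 without it.

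Hspa8, the constitutive HSP70, was read at 13746, 29303 and 14319 in wild type and at 12792, 12508 and 10785 in the knockouts. The groups did not overlap, but WT 2 stood far above the other wild-type libraries, and the log2 fold change with it was -0.66 (edgeR SE 0.29, adjusted p = 0.456). Hsp90aa1, the inducible cytosolic HSP90, was read at 4574, 7269 and 5028 in wild type and at 4145, 4471 and 4292 in the knockouts. Here too the groups did not overlap and WT 2 was highest, with a log2 fold change of -0.38 (edgeR SE 0.17, adjusted p = 0.458). Bag3 was read at 1163, 1584 and 1160 in wild type and at 925, 1114 and 942 in the knockouts (log2 fold change -0.38, edgeR SE 0.14, adjusted p = 0.401). The exact permutation test cannot go below 0.1 with 3 against 3 libraries, and it gave 0.1 for each of the 5 members without overlap.

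The Y198F comparison asks what replacing the first tyrosine does to the same genes. Of the 10 members 1 passed the test: Hspb1 rose in Y198F, 1.79-fold by the means. With edgeR, 15.0% of all genes tested passed and 9.55% passed as higher and 5.48% as lower, so that 1 of 10 is near the background. The groups did not overlap for 4 members, Hspb1 and Bag3 higher and Hsp90aa1 and Hspd1 lower in Y198F, against 34.3% of all genes without overlap, 18.3% higher and 16.0% lower. At an unadjusted p under 0.05 there were 5 members, against 29.1% of all genes.

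Hspb1 was read at 4411, 3385 and 3328 normalized counts in the Y198F controls and at 5666, 7113 and 7124 in Y198F. All mutant libraries lay above all controls, and the fitted log2 fold change was 0.85 (edgeR SE 0.14, adjusted p = 0.00296). With each library left out in turn it stayed between 0.77 and 0.99 and passed. With all 8 groups in one fit it did not pass (log2 fold change 0.85, edgeR SE 0.47, adjusted p = 0.309). Markers of other cell types differed between these groups too. The endothelial sum was 65680 to 83849 in the controls and 87031 to 94489 in Y198F, and the sum of 4 Schwann cell and nerve genes was 1533 to 2971 and 1251 to 1478, neither with overlap. Their part in the result was not tested. Bag3 was read at 1019, 1057 and 998 in the controls and at 1217, 1334 and 1186 in Y198F. The groups did not overlap either, with a smaller log2 fold change of 0.29 (edgeR SE 0.10, adjusted p = 0.0620).

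Hspa1a stood at 1858, 1031 and 1086 in the controls and at 1633, 4270 and 1725 in Y198F. Y198F 2 was far above the others and control 1 above 2 of the mutants, so the groups overlapped (log2 fold change 0.95, edgeR SE 0.52, adjusted p = 0.323). With each library left out in turn it ran from 0.35, without Y198F 2, to 1.27. Hspa1b gave 2073, 1002 and 1192 in the controls and 1688, 5098 and 2047 in Y198F, with the same overlap and a log2 fold change of 1.06 (edgeR SE 0.58, adjusted p = 0.326) that was 0.40 without Y198F 2. Dnajb1 was read at 606, 491 and 547 in the controls and at 582, 762 and 836 in Y198F. Only Y198F 1 lay within the range of the controls, and the log2 fold change was 0.42 (edgeR SE 0.15, adjusted p = 0.0826).

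Other members were lower in Y198F. Hspd1 was read at 2404, 2035 and 2206 in the controls and at 1620, 1796 and 1828 in Y198F. Every mutant library lay below every control, with a log2 fold change of -0.33 (edgeR SE 0.10, adjusted p = 0.0506). Hspd1 passed with DESeq2 (adjusted p = 0.0383), with its size factors in edgeR (0.0472) and with no filter on low counts (0.0319). Hsp90aa1 was read at 6360, 4775 and 5074 in the controls and at 3835, 4705 and 4214 in Y198F, again without overlap (log2 fold change -0.34, edgeR SE 0.13, adjusted p = 0.112). Hsph1 gave a log2 fold change of -0.50 (SE 0.33, adjusted p = 0.386), Hspa8 0.05 (SE 0.23, adjusted p = 0.921) and Hspe1 0.00 (SE 0.14, adjusted p = 0.999), and their groups overlapped. So Hspe1 and Hspd1, which share a promoter, differed by 0.33 on the log2 scale in this comparison, a difference between the genes that was not tested.

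Because all Y198F mutants and none of their controls belong to series 22, the same mutants were also set against the 3 S205A controls of that series, which are controls of another line. Against them all 10 members had log2 fold changes at or below 0, and 0 of 10 passed, as did 0.0% of all genes. The log2 fold change of Hspb1 was -0.28 in place of 0.85, that of Bag3 -0.28 in place of 0.29 and that of Hspa1a -0.24 in place of 0.95. Those of Hspd1 (-0.19) and Hsp90aa1 (-0.22) kept their sign. With the library series as a term in one fit of all 8 groups, 0 of 10 members and 0.0% of all genes passed, and Hspb1 stood at -0.45. That term could be estimated only from the S205A line, whose only libraries outside series 22 are S205A control 4 and S205A 1. The authors' deposited table for Y198F listed Hspb1 at a log2 fold change of -0.11 (adjusted p = 0.989) and Hspa1a at -0.02. A recomputation of that table matched it to within 0.00016 log2 units when the 4 S205A controls were used and differed by up to 7.51 with the labelled Y198F controls.

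**Figure D2:**
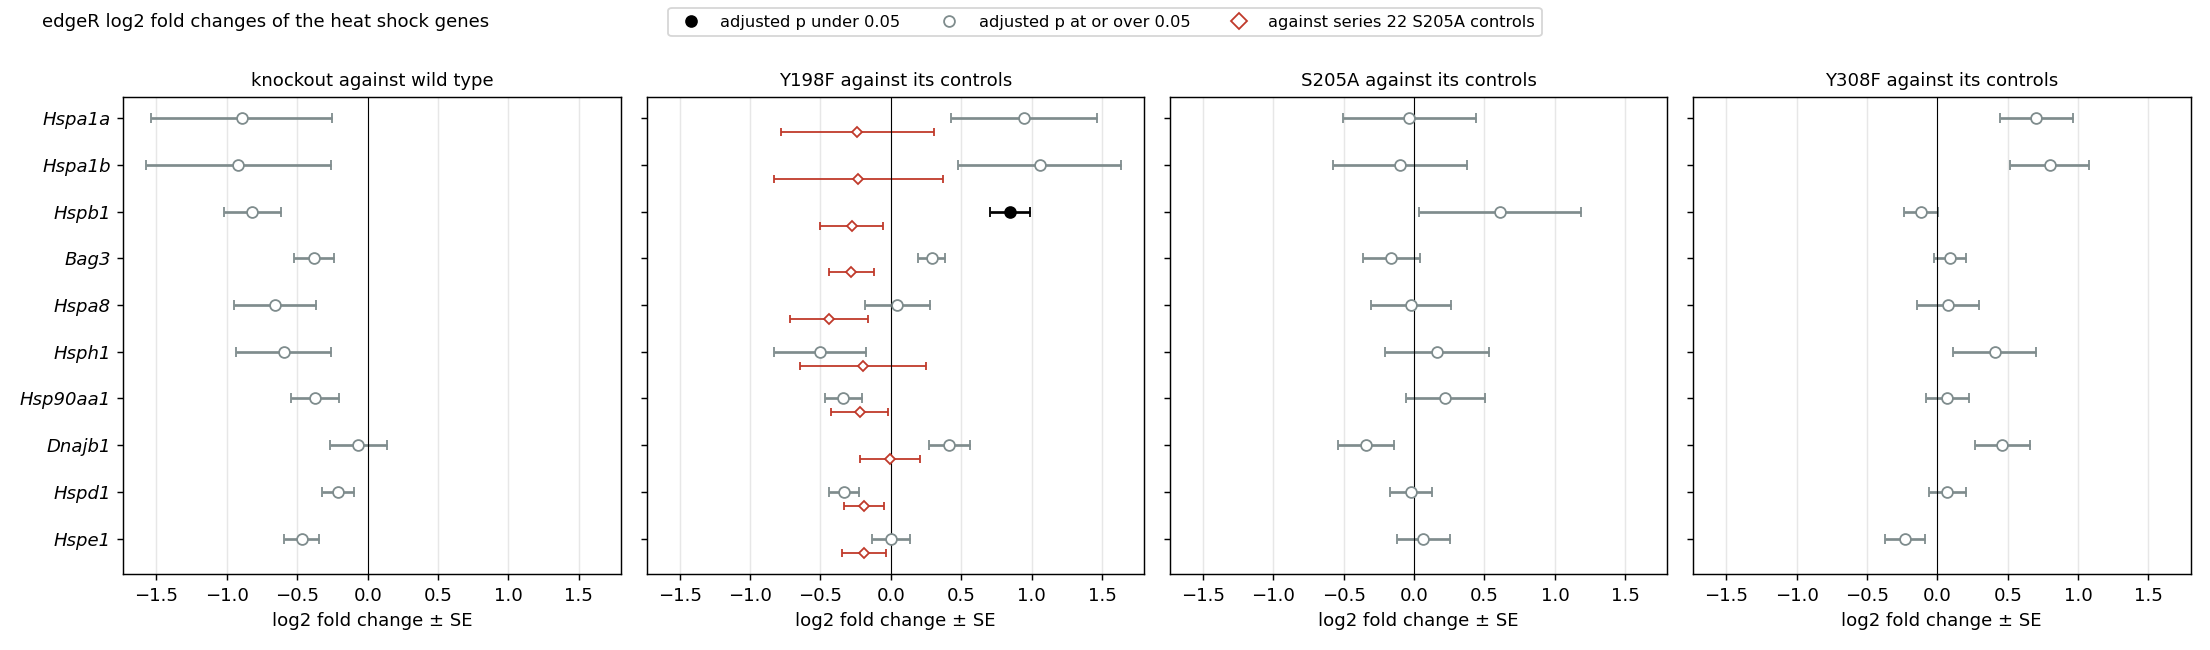
edgeR log2 fold changes (x axis) of the 10 heat shock genes in the 4 comparisons, with bars of 1 standard error. Filled black circles have an adjusted p under 0.05, open grey circles do not, and red diamonds in the Y198F panel show the same mutants against the S205A controls of series 22. All knockout values lie below 0, Hspb1 in Y198F is the only filled point at 0.85, and its red diamond lies at -0.28.

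The library series could be compared within the S205A line, the only one with both series in both groups. Outside series 22 each of its groups has 1 library, S205A control 4 and S205A 1, so the comparison rests on these. There 0 of 10 members passed edgeR's test of the series term, against 5.74% of all genes, and 3 had an unadjusted p under 0.05, against 21.5%. The share of all genes that passed was 0.647% without S205A 1 and 0.436% without S205A control 4. Hspa1a was higher in series 22 by 1.24 on the log2 scale (edgeR SE 0.47, adjusted p = 0.185), Hspa1b by 1.25 (adjusted p = 0.187), Bag3 by 0.47 (SE 0.19, adjusted p = 0.195) and Hspb1 by 1.31 (SE 0.65, adjusted p = 0.310). The value of Hspb1 was 0.84 without S205A 4, 0.88 without S205A 1 and 1.81 without S205A control 4. DESeq2 gave adjusted p-values of 0.0227 for Hspa1a and 0.0229 for Hspa1b, where 6.97% of all genes passed. Hspd1 was lower by 0.18 (edgeR adjusted p = 0.560), and Hsph1 (-0.04), Dnajb1 (-0.08) and Hsp90aa1 (0.03) lay near 0.

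Across all 26 libraries the lowest series 22 library lay above 16 of the 17 others for Hspb1, WT 2 being the exception, above 14 for Hspa1a, 13 for Hspa1b and 11 for Bag3. For Hspd1 the direction was opposite, with 7 of the 9 series 22 libraries below all others. The groups of libraries overlapped for each of the 10 members, while 4.18% of all genes did not overlap between the series. Counts of several processed pseudogenes differed between the series as well, while those of others overlapped. Among these were Hspd1-ps4 (0 to 11 in series 22, 0 to 42 in the others), Hspe1-ps2, Hspe1-ps3, Hspe1-ps4 and Hspe1-ps5. The counts of Gm12346, which shares 941 windows of 150 bases with Hsp90aa1, overlapped too (221 to 675 and 221 to 357), as did those of Gm15459 (1974 to 5668 and 1261 to 3993). Hsp25-ps1, which shares 403 windows of 150 bases with Hspb1, was counted 74 to 281 times in series 22 and 3 to 19 times in the others, which is 1.26 to 2.15% and 0.0801 to 0.563% of the Hspb1 counts. Gm15459, which shares 1093 windows with Hspa8, made 18.1 to 19.9% of the Hspa8 counts in series 22 and 12.6 to 15.8% in the others. Gm6210, which shares 141 windows with Hspa8, made 1.16 to 1.83% of them in series 22 and 0.0698 to 0.247% in the others. The part of these copies in the levels of Hspb1 and Hspa8 was not tested.

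The S205A comparison asks about the serine. None of the 10 members differed past the threshold, and the groups overlapped for all of them. With edgeR 0 of 10 passed, against 0.0% of all genes, and 0 had an unadjusted p under 0.05, against 2.87%. The share of all genes without overlap was 1.76%. The summed counts of 5 fibroblast genes did not overlap, with 17717 to 23230 in the controls and 25151 to 71929 in S205A, and their part in these values was not tested. Hspb1 was read at 10788, 6198, 7232 and 4424 in the controls and at 3804, 6934, 6119 and 26898 in S205A. S205A 4 alone lay above all controls, and S205A 1 below all of them. Its log2 fold change was 0.61 (edgeR SE 0.58, adjusted p = 1.00), and without S205A 4 it was -0.34.

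S205A 4 was also the highest library for several other chaperones. It held 31542 normalized counts of Hspa8 where the other S205A libraries held 14685, 17717 and 14393. Hsp90aa1 stood at 9820 against 5352, 4556 and 4022, Hsph1 at 2890 against 1798, 1397 and 1132, and Hspe1 at 1122 against 665, 739 and 641. In the same library Dnajb1 (432) was the lowest of all 26 libraries, and Hspa1a (2268) and Bag3 (1097) lay within the range of the other S205A libraries. Its total of 14.9 mega-counts was the lowest of the series. The part of depth in these values was not tested.

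In the S205A controls Hspa1a was read at 4939, 1760, 2322 and 1300, and in S205A at 1237, 4399, 2179 and 2268. The groups overlapped over nearly their whole range, with a log2 fold change of -0.03 (edgeR SE 0.47, adjusted p = 1.00) that turned to 0.49 without S205A control 1. Dnajb1 had the largest difference after Hspb1, with 728, 907, 557 and 618 in the controls and 672, 649, 463 and 432 in S205A. Its log2 fold change was -0.34 (edgeR SE 0.20, adjusted p = 1.00). The exact permutation test gave p between 0.2 and 0.886 over the 10 members, where 4 against 4 libraries can reach 0.0286.

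The Y308F comparison asks about the second tyrosine. Of the 10 members 0 passed edgeR's test, against 0.0% of all genes. At an unadjusted p under 0.05 there were 3, Hspa1a, Hspa1b and Dnajb1, all higher in Y308F, against 4.4% of all genes in either direction. The groups did not overlap for Hspa1a and Hspa1b, both higher in Y308F, against 10.7% of all genes without overlap and 5.41% higher without overlap. The HSP70 pair is near-identical in its coding part, so these are not independent observations.

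Hspa1a was read at 993, 720 and 913 normalized counts in the Y308F controls and at 1222, 1020 and 2036 in Y308F. The lowest mutant library lay just above the highest control, and Y308F 3 well above the rest. Its log2 fold change was 0.70 (edgeR SE 0.26, adjusted p = 0.940, exact permutation p = 0.1, the smallest possible). It was between 0.37 and 0.92 with each library left out in turn, lowest without Y308F 3. Hspa1b gave 1147, 710 and 926 in the controls and 1379, 1161 and 2298 in Y308F, with a log2 fold change of 0.80 (edgeR SE 0.28, adjusted p = 0.940).

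Dnajb1 was read at 696, 454 and 481 in the controls and at 629, 727 and 894 in Y308F. Y308F 1 lay below control 1, and the log2 fold change was 0.46 (edgeR SE 0.19, adjusted p = 0.940). Hsph1 was read at 1478, 893 and 1424 in the controls and at 1089, 1659 and 2285 in Y308F, with overlap and a log2 fold change of 0.41 (SE 0.29, adjusted p = 0.940). Hspb1 was nearly level, at 3536, 4058 and 4012 in the controls and 3669, 3492 and 3551 in Y308F (log2 fold change -0.12, edgeR SE 0.12, adjusted p = 0.952). Hspe1 stood at -0.23, and Hspa8, Hsp90aa1, Hspd1 and Bag3 lay between 0.07 and 0.09.

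**Figure D3:**
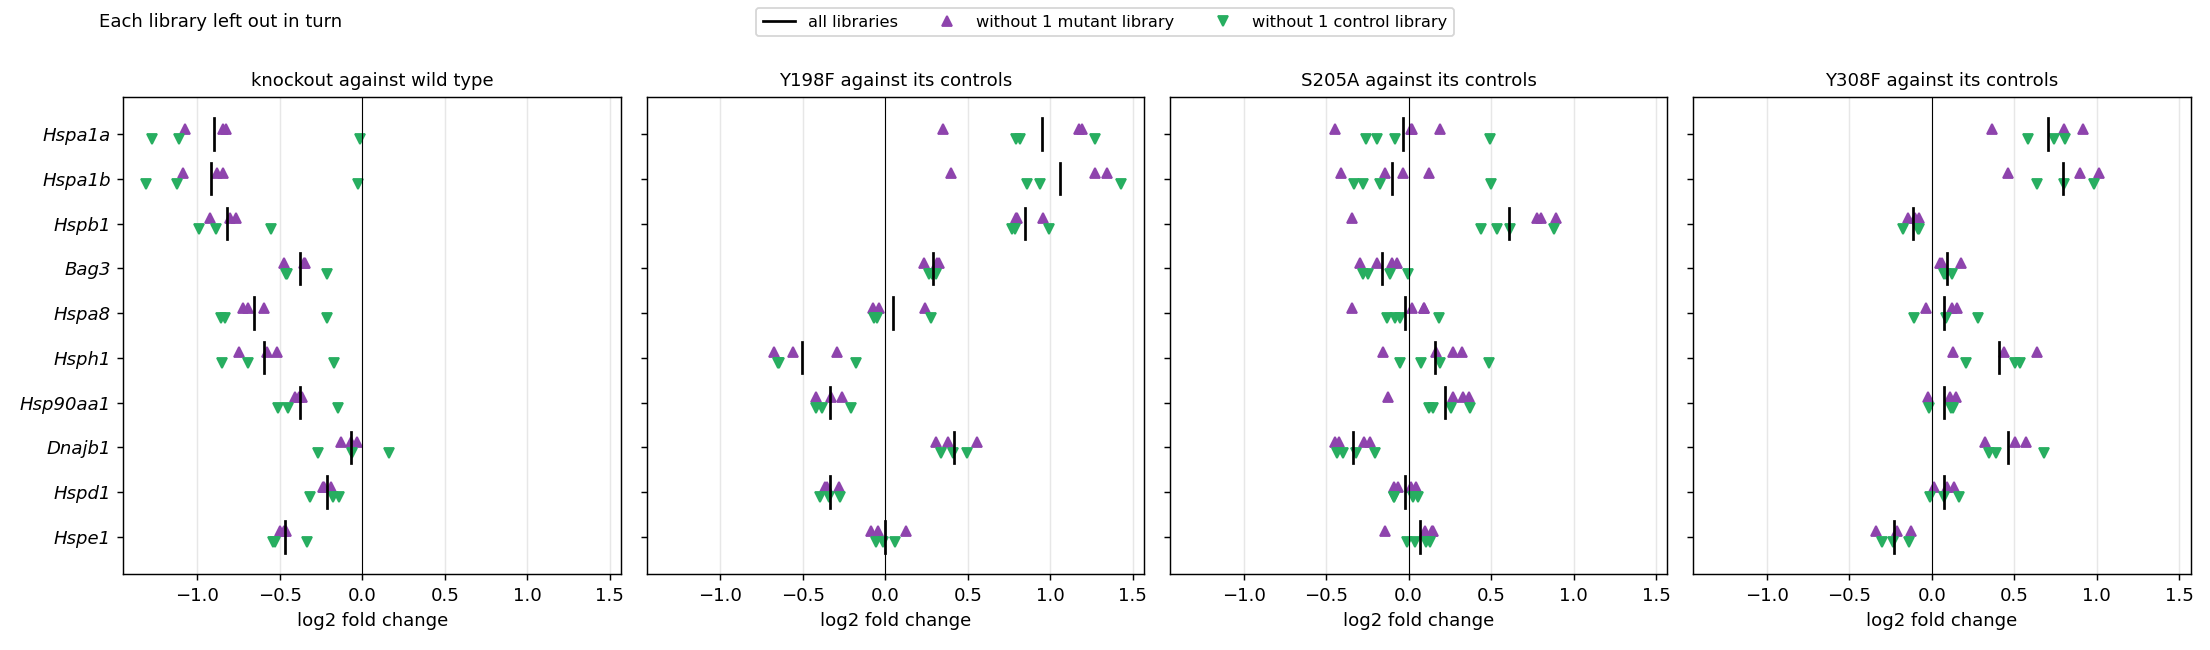
edgeR log2 fold changes (x axis) of the 10 heat shock genes with all libraries (black lines) and with 1 mutant library (purple triangles) or 1 control library (green triangles) left out. In the knockout panel 1 green triangle, without WT 2, lies at -0.01 for Hspa1a, and in the S205A panel 1 purple triangle, without S205A 4, lies at -0.34 for Hspb1. The Hspb1 points of Y198F stay between 0.77 and 0.99.

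Whether the effects of 2 mutations on a member differed was tested directly for the 10 members in the 6 pairs of comparisons, 60 differences in all. Of these 3 passed edgeR's interaction test, all in pairs that include Y198F. The effect on Hspb1 was lower in the knockout than in Y198F by 1.66 on the log2 scale (SE 0.27, adjusted p = 0.00215), and that on Bag3 by 0.67 (SE 0.17, adjusted p = 0.0236), where 11.6% of all genes passed. The effect on Hspb1 was higher in Y198F than in Y308F by 0.96 (SE 0.19, adjusted p = 0.0122), where 5.7% of all genes passed. With 1 library left out the share of all genes ran from 5.74% to 11.1% for the knockout and Y198F. For Y198F and Y308F it ran from 1.78% to 6.82%. Without WT 2 the differences of Hspb1 and Bag3 between the knockout and Y198F were -1.42 and -0.53 and still passed. That of Bag3 did not pass without knockout 1 (edgeR adjusted p = 0.0611), knockout 3 (0.0653), Y198F 2 (0.0567), Y198F control 1 (0.0526) or Y198F control 3 (0.0667). That of Hspb1 between Y198F and Y308F did not pass without Y198F control 3 (edgeR adjusted p = 0.0506). With all 8 groups in one fit, and with the library series as a term, none of the 3 passed, and the difference of Hspb1 between Y198F and Y308F turned to -0.33 with the series as a term. Of all genes, 0.577% and 0.016% passed in these 2 fits for the knockout and Y198F, and 0.0% in both for Y198F and Y308F. In the other 4 pairs no member passed, against 0.00562% of all genes for the knockout and S205A, 0.0116% for the knockout and Y308F, and 0.0% for S205A with Y198F and with Y308F. Without S205A control 4 the share for S205A with Y198F was 5.14%, and 0 members passed.

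The members were also compared with each other over libraries, as deviations from the group means of log2 CPM. These correlations are descriptions over libraries that differ in depth and in library series. Hspa1b followed Hspa1a most closely of 12910 genes (r = 0.989 over 26 libraries, with a median of -0.0156 over all genes). The next were Xirp1 (0.85), which encodes an actin-binding protein of striated muscle, Tle3 (0.839), a transcriptional co-repressor, Fbxw11 (0.83), a ubiquitin ligase subunit, Pxdc1 (0.83), Pdlim1 (0.823), a protein of actin filaments, Sik3 (0.818), a kinase, and Bag3 (0.818), the eighth gene of the order. Without the 2 libraries farthest out in Hspa1a, WT 2 and S205A control 1, the order changed: Pxdc1 (0.807), Sik3 (0.795) and Tle3 (0.789) lay above Xirp1 (0.759) and Bag3 (0.738). The other members came later, with Hspa8 at place 229 (0.634), Hsph1 at 622 (0.528), Hspb1 at 1001 (0.467), Hsp90aa1 at 1486 (0.407), Dnajb1 at 2096 (0.344), Hspd1 at 3609 (0.207) and Hspe1 at 8787 (-0.185).

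The correlations were also read within each library series, and their differences between the series were not tested. In the 15 libraries outside series 22 that share a group with another such library, Hspa1a went with Hsph1 (0.874), Hsp90aa1 (0.873), Hspa8 (0.852), Hspb1 (0.777) and Bag3 (0.748). Without WT 2 and WT 3 these were 0.831, 0.891, 0.773, 0.335 and 0.445. In the 9 libraries of series 22 Hspa1a went with Bag3 (0.812) and less with Hspa8 (0.336), Hsp90aa1 (0.253) and Hspb1 (0.0887), values that were 0.804, -0.0553, -0.149 and -0.209 without S205A control 1 and Y198F 2. The value of Hspb1 with Hspa1a in series 22 was 0.337 without the 2 libraries farthest out in Hspb1, S205A 3 and S205A 4. There Hspb1 went with Hsp90aa1 (0.979), and with 0.944 when S205A 3 and S205A 4 were left out. Hspe1 and Hspa1a gave r = -0.401 in series 22 and -0.549 in the others, and -0.329 and -0.247 without the 2 farthest libraries of each set.

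**Figure D4:**
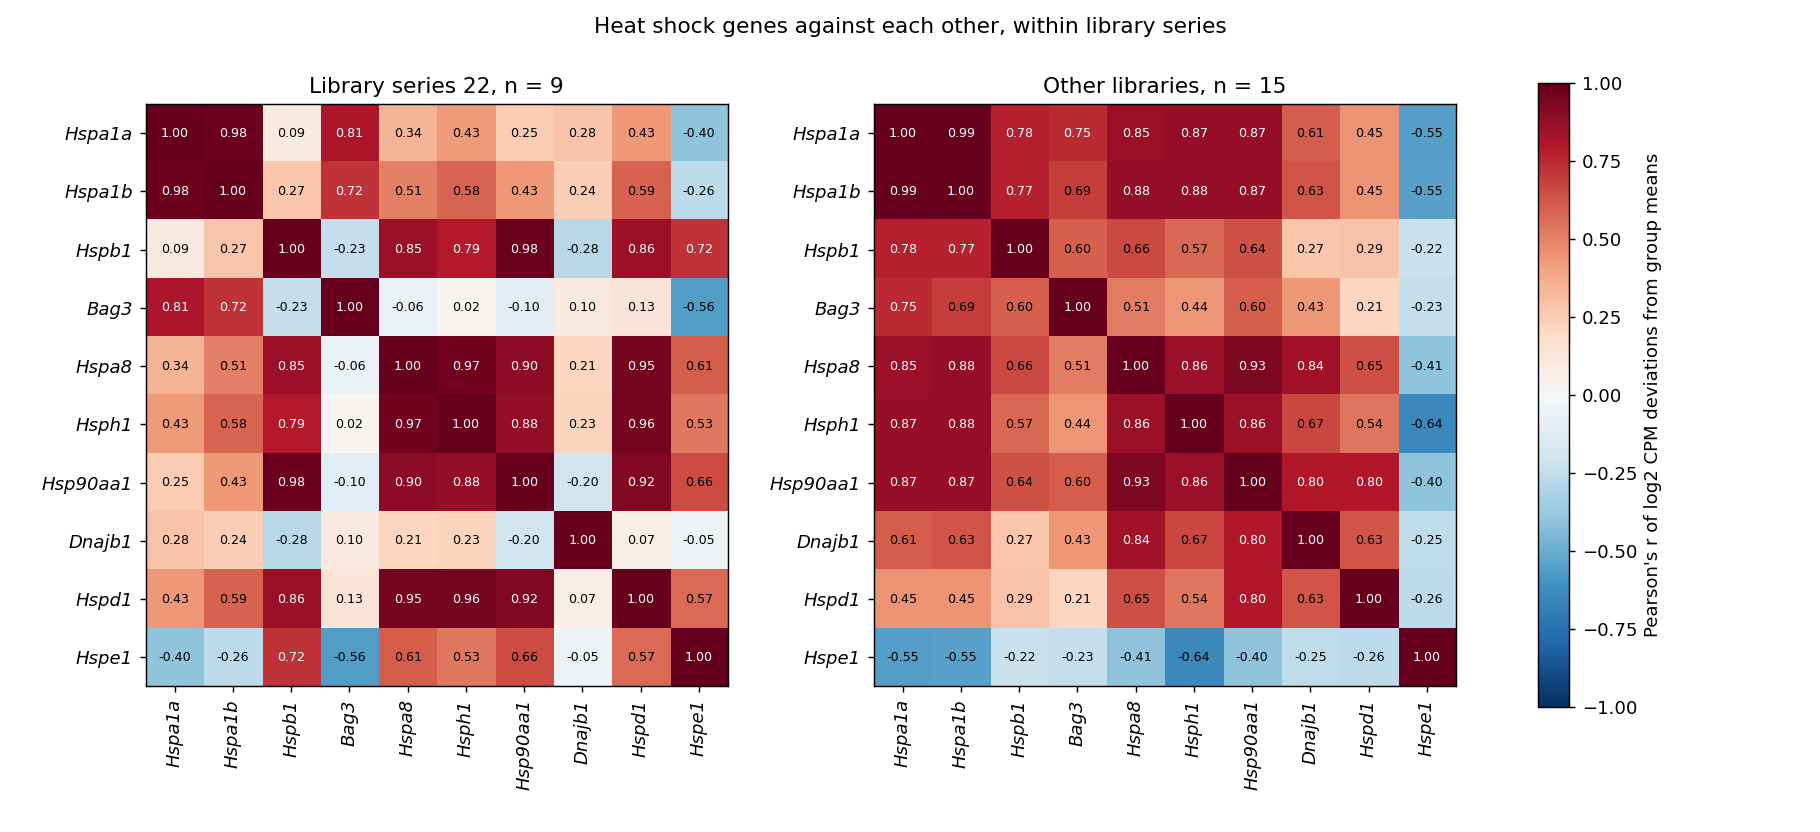
Pearson's r between the heat shock genes, from log2 CPM as deviations from group means, in the 9 libraries of series 22 (left) and in 15 other libraries (right). Colours run from -1 (blue) to 1 (red). Hspa1a and Hspa1b are nearly identical in both, Bag3 goes with them in both (0.81 and 0.75), and r of Hspb1 with Hspa1a is 0.78 on the right (0.335 without WT 2 and WT 3) and 0.09 on the left (0.337 without S205A 3 and S205A 4).

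The wider chaperone network was read from lists of related genes. In the knockout, S205A and Y308F comparisons no gene of these lists passed edgeR's test. In Y198F Hsf1, the regulator of the heat shock response, rose from 859, 945 and 824 normalized counts in the controls to 1113, 1405 and 1072 (log2 fold change 0.46, edgeR SE 0.12, adjusted p = 0.0271). All mutants lay above all controls. Against the series 22 controls of the S205A line its log2 fold change was -0.07, and within the S205A line it was higher in series 22 by 0.52 (edgeR adjusted p = 0.0691).

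Of 33 cytosolic chaperones and co-chaperones 2 rose and 5 fell in Y198F by edgeR, where 9.55% of all genes passed as higher and 5.48% as lower. Hspbp1 (log2 fold change 0.68), a nucleotide exchange factor that inhibits HSP70, and Stub1 (0.34), a ubiquitin ligase that works with HSP70, rose. Dnajb6 (-0.56), a J-domain protein, Hspa4 (-0.51) and Hspa4l (-0.58), both relatives of Hsph1, and St13 (-0.48), an HSP70 co-chaperone, were 4 of the 5 that fell. Hspbp1 was also higher in series 22 within the S205A line (1.06, edgeR adjusted p = 0.00321). Of 5 small heat shock proteins tested 1 rose, against 9.55% of all genes: Hspb6 (0.74), a phosphoprotein of smooth muscle.

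A list of 19 genes of protein folding and stress in the endoplasmic reticulum holds chaperones, the degradation factor Herpud1 and the transcription factors Atf4, Ddit3 and Xbp1. In Y198F 1 of them rose and 5 fell by edgeR, against the same 9.55% and 5.48% of all genes. Herpud1 (0.64) rose. Manf (-0.85), Hsp90b1 (-0.61), Hspa5 (-0.57), which encodes BiP, and Calr (-0.49), which encodes calreticulin, were 4 of the 5 that fell. Of 8 mitochondrial chaperones and proteases 1 fell (5.48% of all genes), Yme1l1 (-0.32), of 16 immediate early genes 1 rose (9.55% of all genes), Ier3 (0.87), and none of the 8 subunits of the TRiC chaperonin or of the 2 cold-inducible genes Cirbp and Rbm3 passed. Against the series 22 controls of the S205A line no gene of these lists passed. Within that line 1 of the 16 immediate early genes passed edgeR's test as higher in series 22, as did 4.42% of all genes.

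In the knockouts no gene of the lists passed, and their medians lay on both sides of 0. The log2 fold change was above 0 for 4 of 33 cytosolic chaperones (median -0.15), 0 of 5 small heat shock proteins (-0.32), 0 of 8 TRiC subunits (-0.20), 1 of 19 genes of the endoplasmic reticulum list (-0.18) and 1 of 8 mitochondrial genes (-0.22). It was above 0 for 2 of the 4 genes Hsf1, Hsf2, Hsf4 and Hsbp1, the last encoding a protein that binds heat shock factors (median 0.03), 1 of 2 cold-inducible genes (0.02) and 10 of 16 immediate early genes (0.14), and the median of all genes was 0.01. Immediate early genes, which respond to handling and stimulation, had a median log2 fold change of 0.85 in S205A and of 0.43 in Y308F. Of the 16, 0 were called in either, against 0.0% of all genes. At an unadjusted p under 0.05 (edgeR) there were 7 in S205A, against 2.87% of all genes, and 4 in Y308F, against 4.4%. The summed normalized counts of all 16 ran from 20268 to 28894 in the Y308F controls and from 26231 to 39100 in Y308F. In that comparison Hspa1a and Hspa1b did not overlap. The part of the immediate early genes in the HSP70 values was not tested.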

How the data were processed

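Per the labels' protocols, the authors mapped read pairs of 150 bases to GRCm39 with STAR 2.7.9a and obtained counts by gene as whole numbers with featureCounts (Rsubread 2.20.0). Annotation release and strand setting are not given in the sources used here. The deposited normalized signal equalled counts divided by DESeq2 size factors (largest relative difference 4.99e-15) for genes with over 50 counts in all. The authors' 4 deposited comparison tables, from DESeq2 1.46.0 per the labels, hold log2 fold changes, test scores, p-values and mean signal.

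Comparisons used edgeR 4.0.16 in R 4.3.3 (quasi-likelihood, TMM, filterByExpr, robust) on the deposited counts of each mutant and its labelled controls. P-values were Benjamini-Hochberg adjusted over all genes tested, with a threshold of 0.05. Alternatives were DESeq2 1.42.0, its size factors within edgeR, no filter on low counts, one fit of all 8 groups, library series, replicate block, other controls, adding Hspa1a and Hspa1b, and leaving out each library. Log2 CPM used a prior count of 2. The fits were first tested on simulated data. Of simulated 2-fold changes they recovered 61% in the knockout comparison, 70% in Y198F, 37% in S205A and 45% in Y308F.

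All 10 members are named. From the related lists up to 4 genes per direction with the smallest adjusted p past the threshold are named, with Hsf1 always, and the 8 genes most like Hspa1a among those with a mean log2 CPM of at least 1. Members and lists were chosen with earlier results of these data known.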

Additional observations from a re-analysis of the deposited data

Results flagged for a closer look

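Hspb1 in S205A stood out for a single library: the gap between S205A 4 (26898 normalized counts) and the next library was 0.864 of the range of the 4 libraries, above Dixon's critical value for a group of 4. It was 1 of 20 groups of 4 libraries examined, and chance marks about 1 in 20. The effect on Hspb1 differed between the knockout and Y198F by -1.66 on the log2 scale, that on Bag3 between the same comparisons by -0.667, and that on Hspb1 between Y198F and Y308F by 0.96. Each passed edgeR's interaction test. Each involves the Y198F line, in which the mutation and the library series coincide, and their part in these differences cannot be told apart.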

How the results depend on the processing

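In the knockout comparison DESeq2 called 1 member (Hspb1) and the fit without a filter 2 (Hspb1 and Hspa8), against 0.677% and 0.821% of all genes. Hspb1 did not pass in the authors' deposited DESeq2 values (adjusted p = 0.674). All genes past the threshold rose from 5 to 107 with DESeq2, 243 without a filter and 18 with the replicate block, and ran from 1 to 5 with a library left out. In Y198F the members called were 2 with DESeq2 (13.2% of all genes called) and with its size factors (15.0%), Hspd1 being added in both, and 4 without a filter (11.0%), with Dnajb1, Hsp90aa1 and Hspd1 added. They were 0 with all 8 groups in one fit, with series as a term and with the S205A controls of series 22. They ran from 1 to 2 with a library left out, with Dnajb1 added without Y198F 1 and Hspd1 without Y198F control 2. All genes called fell from 2411 to 922 with all 8 groups in one fit and to 0 with series as a term or the S205A controls, and ran from 908 (without Y198F control 3) through 1546 (without Y198F control 1) to 2128 with a library left out. DESeq2 called 40 genes in S205A and the fit without a filter 7 in Y308F, and each ran from 0 to 1 with a library left out. DESeq2 called 2 members, Hspa1a and Hspa1b, and 6.97% of all genes for series within the S205A line. The differences between knockout and Y198F numbered 0 with all 8 groups in one fit and with series as a term, and 1 to 2 with a library left out. Without Y198F 2 the second was Hspe1 (-0.59, edgeR adjusted p = 0.0480) in place of Bag3. Those between Y198F and Y308F numbered 0 in both fits, and 0 to 1 with a library left out (0 without Y198F control 3).

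Signs turned as follows. In Y198F with series as a term the log2 fold changes were -0.28 for Hspa1a, -0.19 for Hspa1b, -0.34 for Hspa8, -0.45 for Hspb1, -0.17 for Bag3 and -0.32 for Hspe1. With the S205A controls of series 22 they were -0.24, -0.23, -0.44, -0.28, -0.28 and -0.19, and -0.0048 for Dnajb1. Hspe1 was also -0.0069 with DESeq2 size factors, -0.011 with DESeq2, -0.016 without a filter and -0.0097 with the replicate block. The replicate block gave 0.062 for Hspa1a and 0.065 for Hspa1b in S205A, and series 22 alone gave 0.033 for Hspa8. The Hspb1 difference of Y198F and Y308F was -0.33 with series as a term. The cause was not tested.

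With a library left out, signs turned over these ranges of log2 fold change. In the knockouts it was -0.27 to 0.16 for Dnajb1. In Y198F it was -0.078 to 0.28 for Hspa8 and -0.089 to 0.13 for Hspe1. In S205A it was -0.44 to 0.49 for Hspa1a, -0.41 to 0.50 for Hspa1b, -0.15 to 0.48 for Hsph1, -0.12 to 0.37 for Hsp90aa1, -0.34 to 0.19 for Hspa8, -0.34 to 0.89 for Hspb1, -0.14 to 0.15 for Hspe1 and -0.088 to 0.055 for Hspd1. In Y308F it was -0.022 to 0.15 for Hsp90aa1, -0.11 to 0.28 for Hspa8 and -0.0095 to 0.17 for Hspd1. For series within the S205A line it was -0.30 to 0.10 for Hsph1, -0.38 to 0.25 for Dnajb1 and -0.21 to 0.20 for Hsp90aa1.

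Deviations of same-numbered libraries correlated at -0.284 to 0.225. Correlations of differently numbered libraries were not computed, so these values cannot show whether replicate numbers pair libraries. The replicate block changed no member's call. Depth gave at least 748 counts of Hspa1a and of Hspa1b in each library.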
